A study of Mus musculus with 11 samples.

Results

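The genes described here act on Notch receptors at 3 steps: release of the intracellular domain by γ-secretase, removal of the receptor or of its released domain, and activation of target genes by that domain. They are 9 of the 37224 gene rows of the deposited table, found by symbol: *Psen2*, *Ncstn*, *Aph1a* and *Psenen* of γ-secretase, *Numb* and *Numbl*, the ubiquitin ligase genes *Itch* and *Fbxw7*, and the coactivator gene *Maml1*. RNA-seq compared T cell acute lymphoblastic leukaemia (T-ALL) without and with the X-linked histone demethylase Utx. The tumours without Utx came from male donors with the genotype Utx-/Y, and their controls from wild-type donors that were Utx+/+ or Utx+/Y. All donors had the C57/BL6 background, and their cKit blood progenitors carried Notch1-IC, the already released intracellular part of Notch1, on a retrovirus before intravenous transplantation. The labels list 11 samples, 5 Utx knockout (2 from bone marrow and 3 from spleen) and 6 Utx wild-type (2 from bone marrow and 4 from spleen), of which 1 knockout and 2 wild-type samples were repeat runs. The design text speaks of sorted populations, but the labels do not say which samples were sorted, so recipient cells of marrow or spleen can be part of them. How Utx was deleted is not stated, and the sources used here give no ages of donors or recipients.

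A Notch receptor that meets its ligand is cut outside the cell and then, within the membrane, by γ-secretase. The released domain enters the nucleus, binds the DNA-binding protein Rbpj together with a Mastermind-like coactivator, and turns on target genes. Its life is ended when Fbxw7, the substrate-binding subunit of a ubiquitin ligase, recognises it, while Numb and Itch act on receptors at the membrane and in endosomes. Activating mutations of *NOTCH1* and inactivating mutations of *FBXW7* are well known in human T-ALL.

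The table holds 1 pooled read count per gene and genotype, with 106445530 counts in the Utx knockout pool (UTXKO) and 108015222 in the Utx wild-type pool (UTXWT), so no spread between tumours can be given and no difference below has a replicate check. Levels are counts per 1000000 counts of a pool (CPM), and a log2 ratio is that of the UTXKO pool over the UTXWT pool. Its exact 95% interval (Clopper-Pearson) covers counting error only and treats reads as independent molecules. Calls of higher or lower needed 100 counts over both pools, a difference of at least 2-fold and an interval without 0. *Kdm6a*, which encodes Utx, had 10.5 CPM in the UTXKO pool and 58.3 CPM in the UTXWT pool, a log2 ratio of -2.48 (-2.57 to -2.38). All 12 T cell markers were measured, with summed levels of 3033 CPM in the UTXKO pool and 3738 CPM in the UTXWT pool, and 1 of them, *Thy1* at a log2 ratio of -1.06, was called lower and none higher.

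Most of the 9 genes stood lower in the UTXKO pool by less than 2-fold. All 9 reached the minimum of 100 counts; 1 of them, *Psenen*, was called lower and none higher, where 5.36% of the 13833 genes with enough counts were called lower and 11.2% higher. By sign alone, 8 of the 9 were below 0, as were 55.2% of all genes with enough counts. Without a fold minimum, 7 of the 9 had an interval wholly below 0, beside 46.7% of all genes, and none had one wholly above 0, beside 37.0%. The median log2 ratio of the 9 genes was -0.25, against -0.07 over all genes with enough counts. *Fbxw7* (-0.61), *Aph1a* (-0.48), *Maml1* (-0.34), *Psen2* (-0.25), *Numbl* (-0.24) and *Itch* (-0.11) were below 0, and *Numb* was above it at 0.04. *Ncstn* was at -0.04 with the totals as depth and between 0.028 and 0.053 with 3 other scalings, so that it had no fixed sign; with the total without mitochondrial and erythroid genes its interval lay wholly above 0.

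The DNA before the start sites is shown for the 4 genes with the lowest ratios and for *Numb*, the gene with a ratio above 0. Each is a stretch free of annotated exons within the 250 bases before a RefSeq start (GRCm38.p6), in the direction of the gene; capitals mark matches to the Rbpj core TGGGAA, the CCAAT box CCAAT or the GC box GGGCGG on either strand, and no matches overlapped in these stretches.
Psenen, inner of 2 starts, chr7:30563242-30563300, minus strand: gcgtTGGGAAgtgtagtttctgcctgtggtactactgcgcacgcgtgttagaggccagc
Fbxw7, innermost of 3 starts, chr3:84951961-84952145, plus strand: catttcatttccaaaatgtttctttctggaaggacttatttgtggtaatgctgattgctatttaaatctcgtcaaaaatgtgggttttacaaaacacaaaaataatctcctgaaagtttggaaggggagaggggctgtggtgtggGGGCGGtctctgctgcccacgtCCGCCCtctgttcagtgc
Aph1a, chr3:95893671-95893920, plus strand: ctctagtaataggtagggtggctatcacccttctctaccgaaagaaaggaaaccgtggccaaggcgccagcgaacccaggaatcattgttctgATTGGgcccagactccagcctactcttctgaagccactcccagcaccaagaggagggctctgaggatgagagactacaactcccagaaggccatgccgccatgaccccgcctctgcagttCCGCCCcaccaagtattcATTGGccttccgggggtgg
Maml1, chr11:50292337-50292586, minus strand: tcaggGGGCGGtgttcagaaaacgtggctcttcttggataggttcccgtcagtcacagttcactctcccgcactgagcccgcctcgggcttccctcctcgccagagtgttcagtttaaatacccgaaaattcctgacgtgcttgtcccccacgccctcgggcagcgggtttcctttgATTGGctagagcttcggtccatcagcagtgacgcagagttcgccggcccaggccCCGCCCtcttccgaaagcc
Numb, outermost of 3 starts, chr12:83921935-83922184, minus strand: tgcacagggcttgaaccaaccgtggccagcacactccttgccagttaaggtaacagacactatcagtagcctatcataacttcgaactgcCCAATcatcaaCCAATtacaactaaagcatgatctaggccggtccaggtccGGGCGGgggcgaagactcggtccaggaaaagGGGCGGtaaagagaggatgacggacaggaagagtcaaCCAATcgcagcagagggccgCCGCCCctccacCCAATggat
For genes with more than 1 start, the start shown was picked by hand. The *Psenen* stretch holds 1 Rbpj core and neither other motif, and the *Fbxw7* stretch holds 2 GC boxes. The window of the outer *Psenen* start, not shown, holds no Rbpj core and 1 CCAAT box. *Aph1a* holds 2 CCAAT boxes and 1 GC box, *Maml1* holds 1 CCAAT box and 2 GC boxes, and *Numb* holds 4 CCAAT boxes and 3 GC boxes.

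RefSeq promoter windows were matched for 8 of the 9 genes, with 14 windows in all; *Itch* had no entry. Over their full 250 bases before the start, an Rbpj core lay in 2 of the 14 windows, the inner starts of *Psenen* and *Psen2*, and in 21.6% of 32851 windows of all genes. Among the 8 windows of outermost starts, 0 held an Rbpj core. A CCAAT box lay in 6 of the 14 (33.8% of all windows) and a GC box in 8 of the 14 (32.7%). The E box CACGTG and the TATA box TATAAA lay in 1 window each, of *Psen2* and *Numb*, beside 6.02% and 12.4% of all windows. The 14 windows had 1 to 21 CG dinucleotides, and the median over the windows of all genes was 6. Such matches describe the letters of these windows and say nothing of binding.

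γ-Secretase is a membrane protease of 4 subunits, and its genes differed among themselves. *Psenen* (ENSMUSG00000036835, chromosome 7, 30561863 to 30563627, minus strand; all gene coordinates are GRCm38, GENCODE M21) encodes the small subunit needed to activate the presenilin. It had 46 counts in the UTXKO pool and 109 in the UTXWT pool, or 0.43 CPM and 1.01 CPM. The log2 ratio was -1.21 (-1.75 to -0.71), and 3.81% of all genes with enough counts had a lower one. In CPM, without regard to length, this gene is the least abundant of the 9. It lies just above the count minimum, with 155 counts in all, and its interval reaches ratios well under 2-fold.

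The *Psenen* call ended when the counts of a partly matching pseudogene were added. Of the 1400 distinct words of 50 bases, the read length, in its annotated transcripts, 257 (18.4%) also occur on the same strand in transcripts of *Gm12396*, a processed pseudogene with a row of its own in the table. That row held 69 counts in the UTXKO pool and 58 in the UTXWT pool, a log2 ratio of 0.27 (-0.25 to 0.80). With both rows added, a choice made after the values were seen, the sums were 115 and 167 counts and the log2 ratio -0.52 (-0.87 to -0.17). Another processed pseudogene, *Gm20369*, which has no row, shares 7.86% of the *Psenen* words on the same strand. *Psenen* exons also share 119 of 1275 bases with *U2af1l4* on the other strand. *U2af1l4* had 12.4 CPM in the UTXKO pool and 15.8 CPM in the UTXWT pool. *Gm49396*, a coding gene on that other strand without a row, shares 111 of the 1275 bases. The sources used here do not state which strand was counted, so reads of the shared bases cannot be told apart.

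*Aph1a* (ENSMUSG00000015750, chromosome 3, 95893969 to 95898288, plus strand) encodes the scaffold subunit of γ-secretase. It had 1499 counts in the UTXKO pool and 2117 in the UTXWT pool, or 14.1 CPM and 19.6 CPM, a log2 ratio of -0.48 (-0.57 to -0.38). Its knockout level was 71.9% of the wild-type level, which is the lowest share among the 3 well-counted γ-secretase genes. Its pseudogene *Gm15429* shares 21.2% of its words but held 4 and 9 counts, and adding them left the ratio at -0.48. The opposite-strand gene *Car14* overlaps 445 of its 3450 exon bases and stood at 6.85 CPM in the UTXKO pool and 8.03 CPM in the UTXWT pool. Transcripts of *Jagn1* hold 7.02% of the *Aph1a* words on the opposite strand.

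*Psen2* (ENSMUSG00000010609, chromosome 1, 180227004 to 180263438, minus strand) encodes a presenilin, the catalytic subunit. It had 1880 counts in the UTXKO pool and 2270 in the UTXWT pool, or 17.7 CPM and 21.0 CPM, a log2 ratio of -0.25 (-0.34 to -0.16). *Ncstn* (ENSMUSG00000003458, chromosome 1, 172066013 to 172082795, minus strand) encodes nicastrin, the large glycoprotein subunit. It had 5884 counts in the UTXKO pool and 6137 in the UTXWT pool, or 55.3 CPM and 56.8 CPM. Its interval, -0.09 to 0.01, holds 0, while those of the other 3 subunit genes lie below 0. Exons of *Copa* on the other strand cover 195 of its 3975 exon bases, and *Copa* had 199 CPM in the UTXKO pool and 188 CPM in the UTXWT pool.

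**Figure D1:**
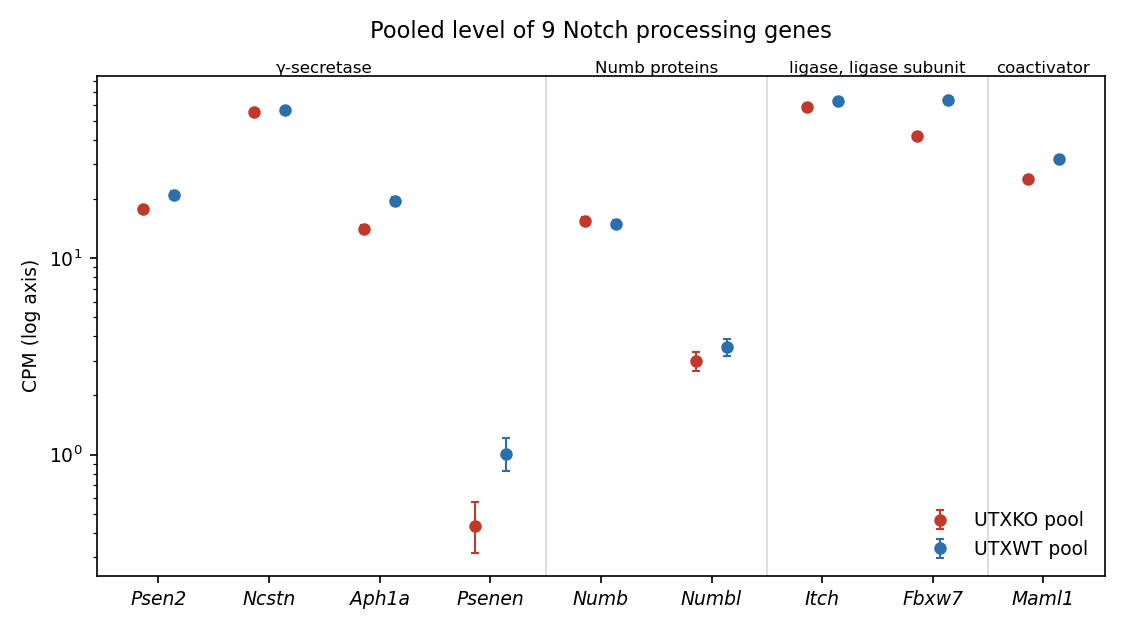
Level of each of the 9 genes in CPM (log axis) in the UTXKO pool (red, left) and the UTXWT pool (blue, right), grouped by role; bars are exact 95% Poisson intervals, which cover counting error only and are hidden by the points of abundant genes. *Ncstn*, *Itch* and wild-type *Fbxw7* lie between 55.3 and 63.3 CPM, and *Psenen* lies lowest at 0.43 CPM in the UTXKO pool and 1.01 CPM in the UTXWT pool.

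*Numb* and *Numbl* encode related membrane-associated adaptors that direct endocytic traffic, and Numb is known as a Notch antagonist. *Numb* (ENSMUSG00000021224, chromosome 12, 83794034 to 83921934, minus strand) had 1638 counts in the UTXKO pool and 1614 in the UTXWT pool, or 15.4 CPM and 14.9 CPM. Its log2 ratio of 0.04 has an interval from -0.06 to 0.14 that holds 0, which is 96.1% to 110.4% of the UTXWT level. *Numbl* (ENSMUSG00000063160, chromosome 7, 27258433 to 27282144, plus strand) had 317 and 380 counts, or 2.98 CPM in the UTXKO pool and 3.52 CPM in the UTXWT pool. Its log2 ratio of -0.24 had an interval from -0.46 to -0.02, whose upper end lies close to 0. With TMM, with the median of ratios and with a total without mitochondrial and erythroid genes, the *Numbl* interval held 0 and that of *Numb* lay above 0.

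*Fbxw7* showed the lowest ratio among the 8 genes with more than 155 counts. It lies on the plus strand of chromosome 3 from 84815268 to 84979198 (ENSMUSG00000028086) and had 4427 counts in the UTXKO pool and 6837 in the UTXWT pool, or 41.6 CPM and 63.3 CPM. The log2 ratio was -0.61 (-0.66 to -0.55), or 65.7% of the UTXWT level (63.3% to 68.2%). It was at most -0.51 under every scaling tried and met a fold minimum of 1.5 but not that of 2. Of all genes with enough counts, 13.8% had a lower ratio. None of its 7092 words of 50 bases occurs in transcripts of another annotated gene, and no exon of another gene overlaps its exons. RefSeq lists 3 starts for the gene, and reads from all of them are joined in 1 count here.

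*Itch* (ENSMUSG00000027598, chromosome 2, 155133509 to 155226855, plus strand) encodes a HECT-type ubiquitin ligase, first known from the immune disease of itchy mice. It had 6213 counts in the UTXKO pool and 6790 in the UTXWT pool, or 58.4 CPM and 62.9 CPM. The log2 ratio was -0.11 (-0.16 to -0.06), smaller in size than that of *Fbxw7*, and the intervals of these genes do not overlap. With the same 3 scalings the *Itch* interval held 0. *Maml1* (ENSMUSG00000050567, chromosome 11, 50255634 to 50292311, minus strand) encodes the coactivator that joins the released Notch domain and Rbpj on DNA and recruits acetyltransferases. It had 2672 counts in the UTXKO pool and 3426 in the UTXWT pool, or 25.1 CPM and 31.7 CPM, a log2 ratio of -0.34 (-0.41 to -0.26). A gene on the other strand overlaps 2.44% of its exon bases, and another overlaps 4.24% of those of *Numb*.

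**Figure D2:**
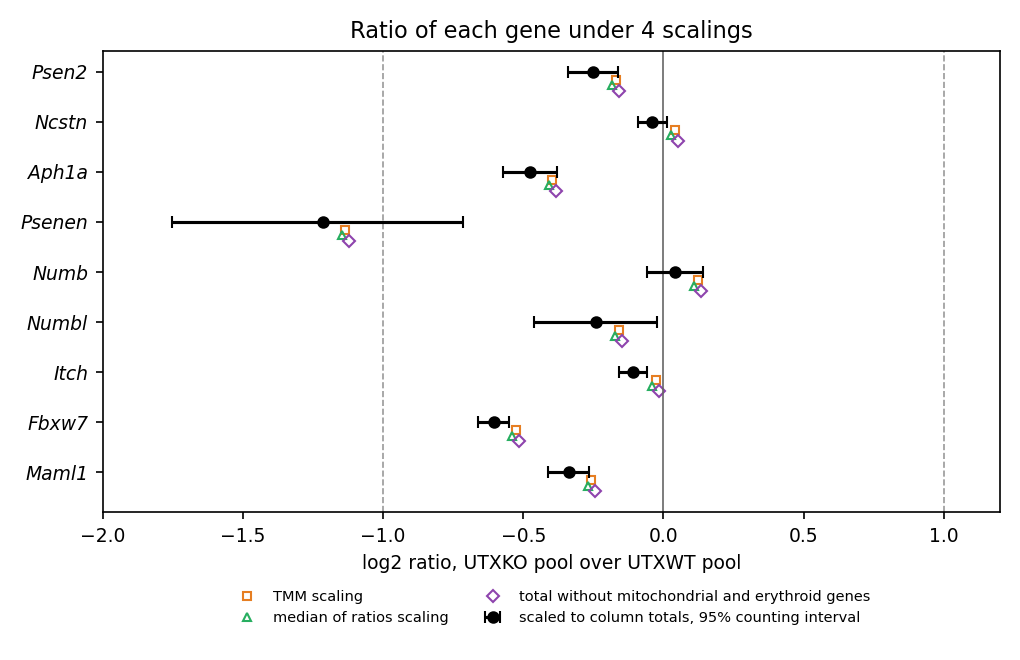
Log2 ratio of the UTXKO pool over the UTXWT pool for each gene: black points use column totals, with exact 95% counting intervals, and open symbols give 3 other scalings; dashed lines mark 2-fold. *Psenen* alone lies past 2-fold, with an interval from -1.75 to -0.71, and the other scalings move each gene upward by less than 0.1, which takes *Ncstn* across 0.

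In the authors' deposited table, from their DEGseq test on the same pooled counts, 7 of the 9 genes had a Benjamini-Hochberg q under 0.05, all with a ratio below 0. Of the 13833 genes with enough counts, 46.2% were lower at that threshold and 82.7% passed it in either direction. The q was 1.84e-106 for *Fbxw7*, 1.05e-06 for *Psenen* and 0.042 for *Numbl* in the authors' deposited table. It was 0.17 for *Ncstn* and 0.47 for *Numb*, the genes whose counting intervals hold 0. Such a q sets 1 pool of reads against another and, from what the table holds, includes no variation among tumours.

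**Figure D3:**
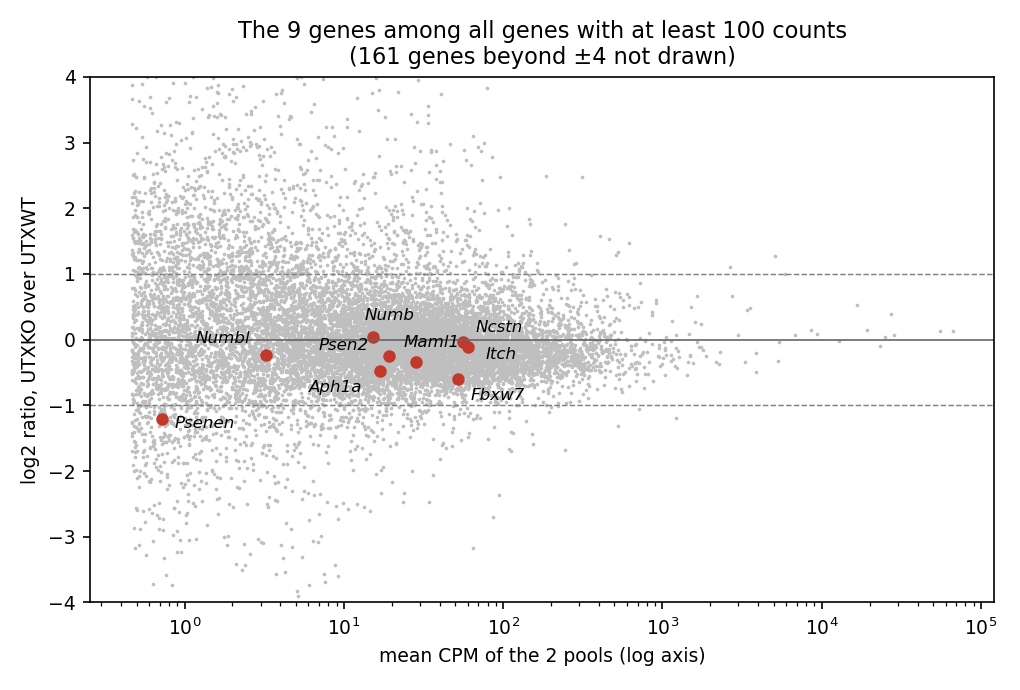
Log2 ratio of the UTXKO pool over the UTXWT pool against mean CPM (log axis) for the 13833 genes with at least 100 counts (grey) and the 9 genes (red); dashed lines mark 2-fold, and 161 genes beyond a log2 ratio of 4 in size are not drawn. *Psenen* lies at the low end of expression, and the other 8 genes lie inside the dashed lines.

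Set per exon length, *Ncstn* was the most abundant of the 9 transcripts in both pools, at 13.9 CPM per kilobase in the UTXKO pool and 14.3 in the UTXWT pool. The length is the union of all annotated exons in GENCODE M21. *Itch* and *Fbxw7* came next, with 6.01 and 5.90 CPM per kilobase in the UTXKO pool, where their intervals overlap, and with 6.47 and 8.98 in the UTXWT pool, where they do not. *Fbxw7* was thus at 0.98 times the level of *Itch* in the UTXKO pool and at 1.39 times in the UTXWT pool. *Maml1* had 4.54 CPM per kilobase in the UTXKO pool and 5.74 in the UTXWT pool.

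The remaining γ-secretase genes stood below *Ncstn* per length. *Aph1a*, *Psen2* and *Numb* had 4.08, 4.08 and 3.93 CPM per kilobase in the UTXKO pool, which overlap in their intervals. In the UTXWT pool the same genes had 5.68, 4.85 and 3.81 CPM per kilobase, with intervals that do not overlap, while those of *Aph1a* and *Maml1* do. *Psenen*, without the counts of *Gm12396*, had 0.34 CPM per kilobase in the UTXKO pool (0.25 to 0.45) and 0.79 in the UTXWT pool (0.65 to 0.95). *Ncstn* stood at 41.0 times and 18.1 times the *Psenen* level by these values. With the counts of *Gm12396* added at the same length, these multiples would be smaller. *Numbl*, at 0.34 and 0.41 CPM per kilobase, overlapped *Psenen* in the UTXKO pool and lay below it in the UTXWT pool; *Numb* was at 11.4 times its level in the UTXKO pool and 9.40 times in the UTXWT pool. With the longest coding transcript as length, a choice made after the values were seen, *Psen2* stood at 8.74 CPM per kilobase in the UTXKO pool and 10.4 in the UTXWT pool, above *Aph1a* and *Maml1*. *Fbxw7* was then at 0.85 times the level of *Itch* in the UTXKO pool, with intervals that do not overlap, and stood above it in the UTXWT pool, at 14.2 against 11.8 CPM per kilobase. *Numbl* then stood above *Psenen* in the UTXKO pool, at 1.08 against 0.61 CPM per kilobase, and their intervals overlapped in the UTXWT pool, at 1.27 and 1.43. *Numb* was at 4.02 times the level of *Numbl* in the UTXKO pool and 3.30 times in the UTXWT pool. *Ncstn* was then at 31.2 times the level of *Psenen* in the UTXKO pool and 13.7 times in the UTXWT pool. These multiples also leave out the counts of *Gm12396*.

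**Figure D4:**
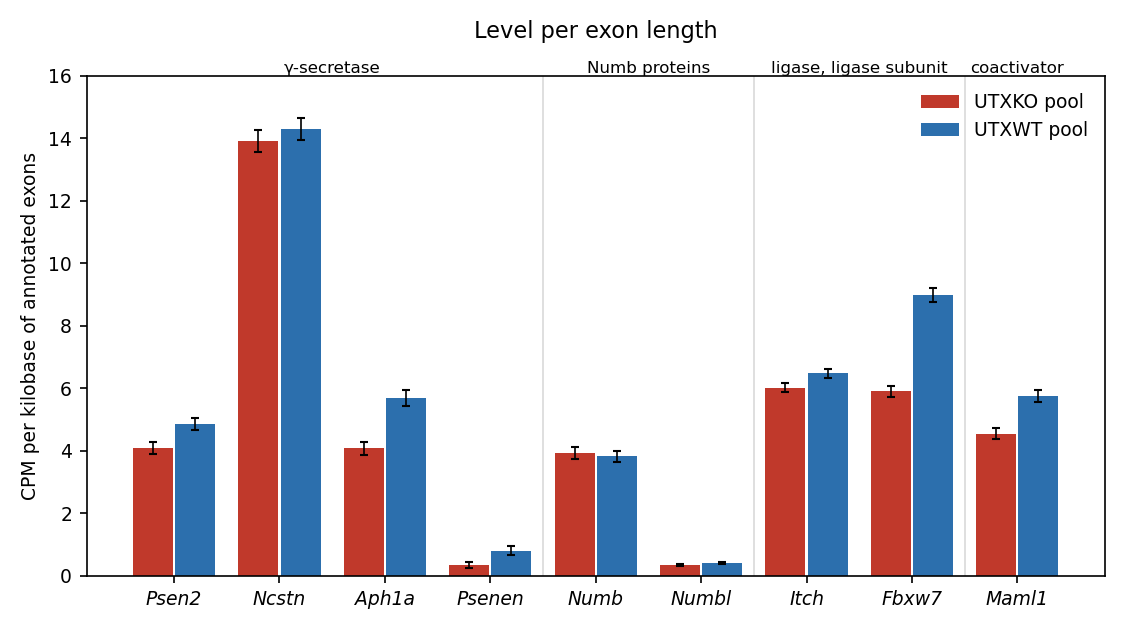
Level per kilobase of annotated exons in the UTXKO pool (red, left bars) and the UTXWT pool (blue, right bars); error bars are exact 95% Poisson intervals for counting error only. *Ncstn* is highest at 13.9 in the UTXKO pool and 14.3 in the UTXWT pool, and the knockout bar of *Fbxw7* is at the height of *Itch* while its wild-type bar is above it; with the longest coding transcript as length, knockout *Fbxw7* was at 0.85 times *Itch*.

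Other genes of the same steps had ratios on both sides of 0. Of 6 other cleavage genes, 5 had at least 100 counts, 1 was called higher and none lower, with a median log2 ratio of -0.09. The higher gene was *Aph1b*, a relative of *Aph1a*, with 103 counts in the UTXKO pool and 38 in the UTXWT pool, a log2 ratio of 1.45 (0.91 to 2.04). Mouse *Aph1b* and *Aph1c* are close copies, so this value is uncertain; their summed counts were 141 and 87, a log2 ratio of 0.71 (0.32 to 1.12), which is under 2-fold. The lowest was *Furin*, whose protease processes Notch precursors, at 29.2 CPM in the UTXKO pool and 43.1 CPM in the UTXWT pool, a log2 ratio of -0.56.

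None of 18 other turnover genes was called, and their median was -0.02. They reached from the ubiquitin ligase gene *Nedd4l* at -0.89 (16.3 CPM in the UTXKO pool and 30.3 in the UTXWT pool) to *Dtx4*, a Deltex ligase gene, at 0.82 (8.43 and 4.77 CPM). Of 11 other coactivation genes 1 was called higher and none lower, with a median of 0.06. The higher gene was *Snw1*, a splicing factor that also binds Rbpj complexes, with 42090 counts in the UTXKO pool and 19053 in the UTXWT pool, a log2 ratio of 1.16 (1.14 to 1.19). The acetyltransferase gene *Crebbp* was lowest at -0.63, with 159 CPM in the UTXKO pool and 245 CPM in the UTXWT pool.

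Genes for corepressors that act with Rbpj when Notch is off had a median of -0.35, with none of 7 called. *Tle1* was highest at 0.97, with 718 counts in the UTXKO pool and 371 in the UTXWT pool. *Tle1* was called higher with TMM, with the median of ratios and with a total without mitochondrial and erythroid genes. Genes of known Fbxw7 substrates, whose proteins and not transcripts are its targets, had a median of -0.04 with none of 9 called. They lay between *Ccne2* at -0.61 (43.7 CPM in the UTXKO pool and 66.5 in the UTXWT pool) and *Jun* at 0.51 (10.6 and 7.42 CPM).

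**Figure D5:**
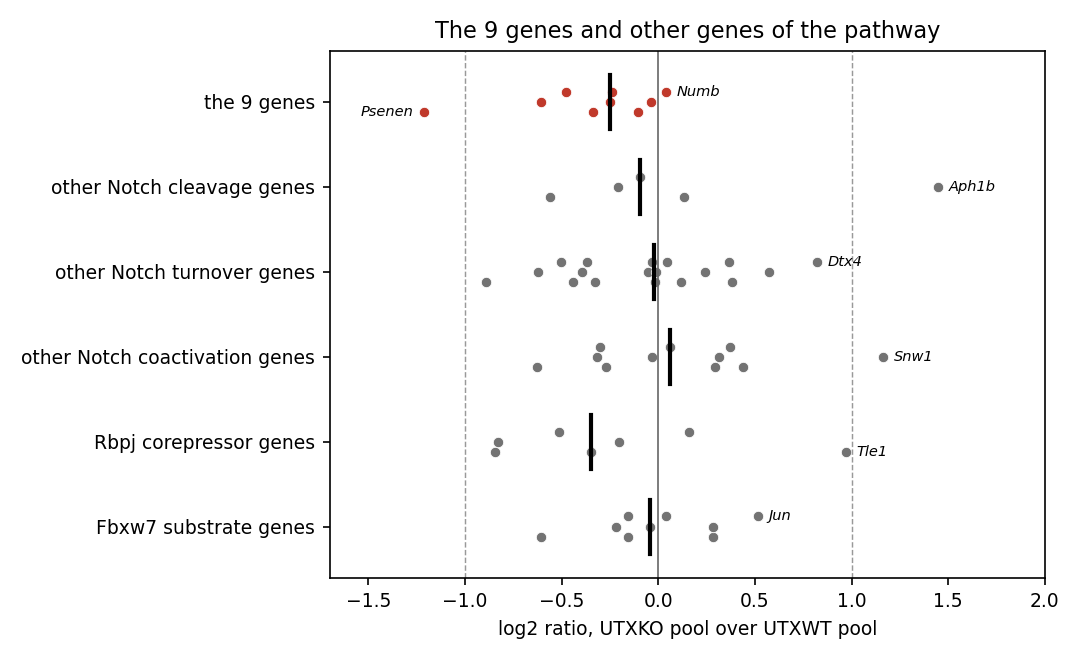
Log2 ratios of the UTXKO pool over the UTXWT pool for the 9 genes (red) and for genes with at least 100 counts in 5 further lists of the pathway (grey); black ticks are medians and the highest gene of each list is named, with the lowest of the 9. *Aph1b* at 1.45 and *Snw1* at 1.16 lie above 2-fold, and *Psenen* at -1.21 below it.

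Markers of other cell types differed between the pools beside these genes, with calls counted over markers that had at least 100 counts and summed levels over whole lists. Of 15 granulocyte and monocyte markers 8 were called higher and none lower (summed level 2666 CPM in the UTXKO pool and 2074 in the UTXWT pool), and of 10 erythroid markers 3 were higher and none lower (26654 and 13399.6 CPM). Of 6 NK markers 4 were higher (232.6 and 246 CPM over the list), and of 6 megakaryocyte markers 3 were higher (27.6 and 13.3 CPM). In the NK sum, *Gzma*, which was not called, had 193 CPM in the UTXKO pool and 236 CPM in the UTXWT pool. Of 8 stromal and endothelial markers 3 were higher and 1 lower (151 and 185 CPM). The lower gene, *Pdgfrb*, had 31.7 CPM in the UTXKO pool and 88.2 CPM in the UTXWT pool. Of 4 B cell markers 1 was lower (6.13 and 6.84 CPM). Each of these markers with 1 row in the table had counts; *Ebf1*, on the B cell list, had more than 1 row and was left out. In bulk RNA, fewer cells of a type and less RNA per cell cannot be told apart, and the part of other cells in the ratios of the 9 genes was not tested.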

How the data were processed

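Libraries of poly(A) RNA, strand-marked with dUTP, were sequenced from 1 end over 50 bases, per the labels' protocols; the design text names Ribominus RNA as another option. CASAVA, TopHat and the build mm9 are named, without versions, per the submitters' processing notes; annotation, counting tool and counted strand: not given in the sources used here. In 1 table the authors deposited whole read counts per gene, pooled by genotype; which samples entered each pool is not given. The column value1 was read as the knockout pool, following the rule for the 9 genes and the order of genotypes in the table's title. Columns of per-sample values numbered 0, so no test across samples was run. The log2 fold changes, p-values and q-values deposited by the authors come from DEGseq, per the series' design text and the file headers; the deposited z score was not used, and only q-values are printed.

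CPM used the total of gene rows, and log2 ratios a pseudocount of 0.5 counts in each pool. Intervals of ratios are exact 95% Clopper-Pearson intervals. Gene models, overlaps and transcript words came from GENCODE M21 (GRCm38) by Ensembl identifier; promoter windows are RefSeq's on GRCm38.p6. No coordinate on mm9 is used. The 9 genes and the lists were chosen with earlier results of these data known. Named beyond the 9 were called list genes and the highest and lowest of each pathway list (1 such gene is not reported here), and *Gm12396*, *Gm15429*, *U2af1l4*, *Car14*, *Copa* and *Thy1* after their values were seen. Other settings were TMM (edgeR 4.0.16), median of ratios (DESeq2 1.42.0), upper quartile scaling, a total without mitochondrial and erythroid genes, a pseudocount of 5, changed minimums for counts and fold, the authors' q in place of the interval and, added later, counts of copies and another length. Python 3.11.15 and SciPy 1.17.1 were used.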

Additional observations from a re-analysis of the deposited data

How the results depend on the processing

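No gene of the 9 was called higher under any setting tried. *Psenen* was called lower under every setting but 1. The looser minimums for counts and fold could not have ended its call, and no stricter minimum was tried. With the counts of partly matching pseudogenes added, 0 of the 9 genes were called lower, and the *Psenen* log2 ratio was -0.52. A fold minimum of 1.5 called 2 of the 9 genes lower, *Psenen* and *Fbxw7*, beside 2037 of the 13833 genes with enough counts. The sign of *Ncstn* turned to 0.041 with TMM, 0.028 with the median of ratios and 0.053 with a total without mitochondrial and erythroid genes. The median of the 9 genes was -0.16 with that total. Under TMM or median-of-ratios scaling, 5 of the 9 genes had an interval below 0 and 1, *Numb*, above it. With the total without mitochondrial and erythroid genes, 5 lay below and 2, *Numb* and *Ncstn*, above. The shares of all genes were computed only with column totals, at 46.7% below and 37.0% above. These counts of members under other scalings thus have no background share beside them. Over all genes, 2330 were called higher and 1495 lower with a minimum of 20 combined counts, 2718 and 1973 with no minimum, and 2617 and 2037 with a fold minimum of 1.5. The median over all genes moved by at most 0.09 under the other scalings. Another scaling shifts the log2 ratio of every gene by the same amount by its construction. Minimums and added counts also change the calls by their construction. Why the scalings differ was not tested. No paired analysis was possible because the table holds 1 pooled column per genotype; leaving out samples could not be run for the same reason. *Psenen* and *Numbl*, with 155 and 697 combined counts, are the least precise of the 9.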
